A study of Danio rerio with 18 samples.

Results

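The measurements compare whole zebrafish embryos lacking p53 (p53 -/-), collected 1 h after ionizing radiation, with untreated embryos of the same genotype. The comparison uses all genes of the p53 mutant table in 4 of the 18 libraries of the series, which are replicates 1 and 2 of each group. Irradiated embryos received X-rays at 5 Gy per min to a total of 30 Gy, and all embryos carry a stage label of 30 h after fertilization. RNA was enriched for poly(A) transcripts and read on an Illumina HiSeq at either of 2 centres, which the labels do not assign to single libraries. Set beside this comparison are a triple mutant (puma -/- noxa -/- p21 -/-) 1 h after the same irradiation and its untreated embryos, with 2 libraries each, whose genotype names no p53 mutation, and the p53 mutant at 3 h, also with 2 libraries. The 3 h values share the untreated libraries of the 1 h comparison. The labels do not name the p53 allele, the age of untreated embryos at collection, or whether the 2 libraries of a group came from separate clutches or pools, so p-values measure the spread between libraries. In the fit of the 4 libraries that spread is one shared by genes of like level, not the gene's own.

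Ionizing radiation breaks both strands of DNA. Cells with p53 answer with transcription of p53 targets, among them mdm2, whose product degrades p53, cdkn1a, whose product p21 blocks cyclin-dependent kinases, and bbc3, which promotes cell death. Cells also stop before mitosis through checkpoint kinases that do not need p53, and genes of cyclins, spindle proteins and mitotic kinases are transcribed mainly as cells approach mitosis. The series title is about how p53 arrests the cell cycle through p21 and 3 further genes, ccng1, foxo3b and fbxw7, and the p53 mutant shows which transcripts differ after irradiation when p53 is missing.

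The libraries of both groups were of unlike kinds. In 5.8S ribosomal RNA, the 1 h libraries held 304 and 52.8 TPM (transcript abundance corrected for gene length and scaled to the same sum in each library) in replicates 1 and 2, against 631 and 13.6 TPM in the untreated libraries. Both p53 mutant libraries at 3 h were listed at 0 TPM of this RNA, so neither untreated library matched them in kind. Mitochondrial transcripts took 1.54% and 5.78% of TPM at 1 h, against 1.67% and 5.21% untreated. At least 1 TPM was reached by 14057 and 17396 genes at 1 h, against 16003 and 17182 genes in untreated embryos. Replicate 1 minus replicate 2 correlated across genes between the 2 groups at 0.81, so values are given as 2 pair differences, 1 h minus untreated of the same replicate number, on the log2(TPM + 1) scale. Kept for testing were 17242 genes that reached 1 TPM in 2 or more of the 4 libraries. Their median difference was -0.39 in pair 1 and 0.07 in pair 2. Markers of several embryonic tissues were present, with 46 of 46 listed genes of skeletal muscle, 42 of 46 of neurons, 32 of 33 of epidermis and 41 of 55 of the lens among the genes kept.

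Few genes moved alike in both pairs. The sign of the difference was the same in both pairs for 5989 genes, or 34.7%, while 9490 genes were lower in pair 1 and higher in pair 2. Medians of opposite sign in the pairs bear on these counts. Across genes, the differences of pair 1 and pair 2 correlated at -0.23. A difference of at least 0.5 in both pairs was reached by 84 genes in the lower direction, or 0.487% of those tested, and by 33 in the higher direction, or 0.191%. Some of the 33, mostly loci without a symbol, differed far more between replicates than between groups. One singled out after its values were seen, si:dkey-153m14.1, had 21540 and 1702 TPM at 1 h, against 14672 and 1166 TPM untreated. The part of the kind of library in these was not tested. With each pair measured from its own median, 3560 genes lay below it in both pairs and 3560 above it in both. At least 0.25 below it in both pairs lay 365 genes (2.12%), and at least 0.25 above it in both lay 381 (2.21%).

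The test across all genes, limma with the replicate number as a block, called 1 gene, or 0.0058% of those tested, and 262 genes had an unadjusted p under 0.05. In this fit the SE of a gene followed from its mean level alone, so how well its own pairs agreed had no weight. The gene called was 5_8S_rRNA (ENSDARG00000081218), which encodes 5.8S ribosomal RNA and is not a poly(A) transcript. Its level was 111.54 and 26.04 TPM at 1 h, against 258.83 and 0 TPM in untreated embryos, so its pairs went in opposite directions, -1.21 and 4.76. When all 18 libraries were fitted with a term for the kind of library, limma called 1 of 18575 genes, or 0.00538%, and that gene was the helicase gene PIF1. The spread in that fit is pooled over the 9 groups of the series, so its p-values do not measure the spread of these 4 libraries alone. Its term takes the gap between kinds as equal in each unlike pair. Replicate 1 minus replicate 2 had an SD across genes of 0.91 at 1 h and 0.55 untreated. Thus in neither fit did more than 1 gene pass at 1 h.

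**Figure D1:**
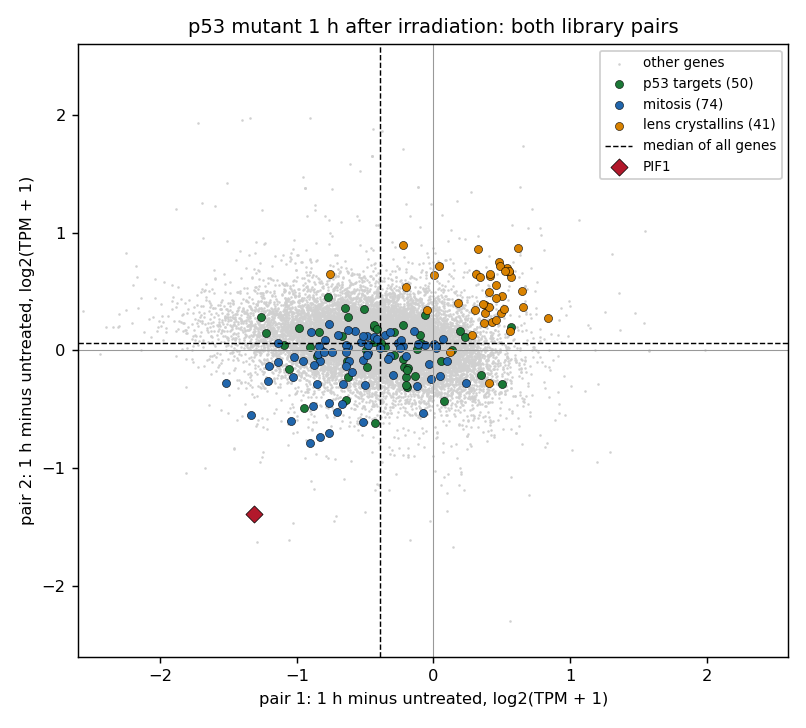
Difference between 1 h and untreated p53 mutant embryos in log2(TPM + 1), for pair 1 (horizontal axis) and pair 2 (vertical axis), 1 point per gene; 10 genes beyond 2.6 on an axis are not drawn. Dashed lines mark the medians of all genes, -0.39 and 0.07. PIF1 and part of the mitosis genes lie low in both pairs, lens crystallin genes lie high in both, and p53 targets lie around the medians.

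PIF1 (ENSDARG00000020289), a DNA helicase that acts at replication forks and telomeres, was the clearest transcript in the comparison. It stood at 2.90 and 2.29 TPM 1 h after irradiation, against 8.70 and 7.62 TPM in untreated embryos, and the groups did not overlap. The pair differences were -1.31 and -1.39, the largest difference common to both pairs on the low side among genes at 1 TPM or more in all 4 libraries. In the fit of 18 libraries, whose SE is pooled over all 9 groups, PIF1 fell by 1.35 (SE 0.141, limma adjusted p = 0.00569). In the fit of the 4 libraries alone the same difference had an SE of 0.458 and was not called (adjusted p = 1.00). That SE is the value for genes of like level and does not reflect how close the pairs of PIF1 were. Left without untreated replicate 1, the fit of 18 libraries gave -1.29 (adjusted p = 0.0506).

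PIF1 was low at 1 h in both mutants. The series has no wild type at 1 h. The mutants also differ in puma, noxa and p21 and in the kinds of library, so the part of p53 alone was not tested. The triple mutant had 1.57 and 1.67 TPM at 1 h, against 9.35 and 9.51 TPM untreated, and fell by 1.99 (SE 0.141, adjusted p = 1.22e-05) in the fit of 18 libraries. The response of the p53 mutant minus that of the triple mutant was 0.64 (SE 0.199, adjusted p = 0.525) there, so a smaller drop in the p53 mutant was not called. Without p53 mutant 1 h replicate 2 it was 0.76 (adjusted p = 0.0331), in a fit that called 2656 of 18450 genes and took the 1 library left in that group to vary like the other groups. The p53 mutant at 3 h, set against the same untreated libraries, stood at 0.89 and 0.97 TPM.

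Among the 29 lists, mitosis had the most members low in both pairs, though these were a small part of the 365 genes this low. All lists were written with earlier results of these data known, so counts of their members describe them and are not a test. Of 74 tested members of the mitosis list (75 in the table), 14 lay at least 0.25 below the median of all genes in both pairs and 0 lay above it by as much, against 2.12% and 2.21% of all genes. At least 0.5 lower in both pairs without that adjustment were 7, against 0.487% of all genes. In 16 of the 74 both 1 h libraries lay below both untreated libraries, and in 0 above, against 5.48% and 2.63% of all genes. Taken singly, pair 1 had 33 members at least 0.25 below the median (27.8% of all genes) and pair 2 had 23 (12.5%). The list had a median difference of -0.58 in pair 1 and -0.04 in pair 2, against -0.39 and 0.07 for all genes. In both pairs, 39 members were below the median of all genes and 5 above, while 3560 of the 17242 genes were on each side. Mitosis did not have the lowest median. The 18 tested blood vessel genes had -0.70 and -0.06, with 11 below the median of all genes in both pairs and 1 above. Of those 18, 1 lay at least 0.25 below it in both pairs. None of the 74 passed limma in either fit. In whole embryos, fewer cells of a type and less RNA per cell cannot be told apart.

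Among the cyclins that drive entry into mitosis, ccnb3 (ENSDARG00000034855) had 16.53 and 14.72 TPM at 1 h, against 31.87 and 26.15 TPM untreated. Its pair differences were -0.91 and -0.79 (-0.85, SE 0.341, limma adjusted p = 1.00, in the 4 libraries). CCNB1 (ENSDARG00000051923), which encodes cyclin B1, had 61.75 and 64.96 TPM at 1 h, against 105.81 and 106.24 TPM untreated. Both genes were lower in each 1 h library than in either untreated library, with untreated replicates of CCNB1 nearly equal. CCNB2 (ENSDARG00000036180) had 7.61 and 6.55 TPM against 13.63 and 9.29 TPM, a weaker difference in pair 2 (-0.45) than in pair 1 (-0.76).

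The same separation held for the kinase gene aurka (ENSDARG00000012485), which encodes Aurora A and is needed to build the spindle, at 27.73 and 26.82 TPM 1 h after irradiation, against 50.21 and 45.17 TPM in untreated embryos. Its pair differences were -0.83 and -0.73. In the fit of 18 libraries, aurka and ccnb3 each had an adjusted p of 0.0803 and were not called. PRC1 (ENSDARG00000005993), which bundles microtubules of the spindle midzone, had 7.85 and 11.93 TPM at 1 h, against 17.24 and 18.55 TPM untreated. CDC20 (ENSDARG00000100741), an activator of the anaphase-promoting complex, had 33.00 and 41.42 TPM at 1 h, against 54.56 and 59.97 TPM untreated. All 3 genes kept the groups apart in both pairs.

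Of the 14, all but CENPF and ASPM had both 1 h libraries below both untreated libraries, some narrowly. The actin-binding gene anln, needed for cytokinesis, had pair differences of -1.33 and -0.55, and the large kinetochore and spindle pole genes CENPF and ASPM had -1.52 and -0.28, and -1.21 and -0.26. Replicate 2 of anln at 1 h (18.28 TPM) lay just under untreated replicate 1 (18.70 TPM). CENPF had 4.09 and 21.49 TPM at 1 h, against 13.58 and 26.32 TPM untreated, so its groups overlapped. The motor genes KIF23 and kifc1, the kinase gene NEK2, the ubiquitin ligase gene g2e3 and fbxo5, an inhibitor of the anaphase-promoting complex, made up the rest of the 14. A further list member, the cyclin-dependent kinase subunit gene cks2, was lower by at least 0.5 in both pairs as deposited (-0.52 and -0.60) but near the median of pair 1. By contrast CDK1 (105.07 and 121.01 TPM at 1 h, against 109.45 and 117.05 TPM untreated), the partner kinase of the cyclins, differed by -0.06 and 0.05.

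**Figure D2:**
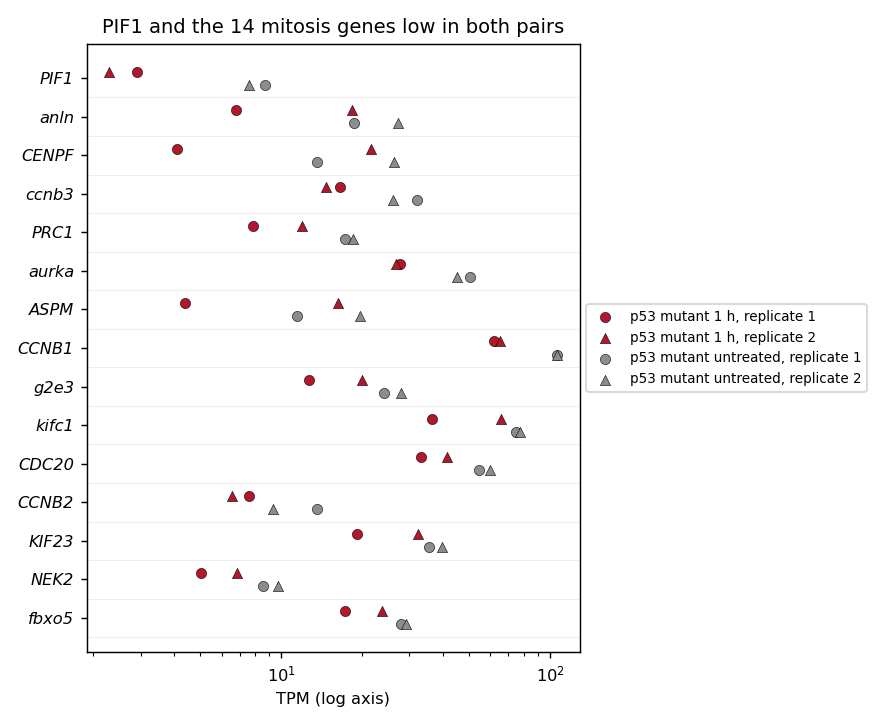
TPM of PIF1 and of the 14 mitosis genes low in both pairs (log axis), in the 2 libraries of the p53 mutant at 1 h (red) and the 2 untreated libraries (grey); circles are replicate 1 and triangles replicate 2. Both red points lie left of both grey points for PIF1 and for each mitosis gene except CENPF and ASPM, where replicate 2 at 1 h lies right of untreated replicate 1.

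Several mitotic genes outside the list were also among the 84 genes lower by at least 0.5 in both pairs, and were singled out after their values were seen. The Aurora A cofactor bora stood at 4.08 and 6.15 TPM 1 h after irradiation, against 8.71 and 11.10 TPM in untreated embryos. The spindle gene fam83d had 5.15 and 4.69 TPM at 1 h, against 9.61 and 9.58 TPM untreated. Differences of the same kind were those of troap (-1.25 and -0.65), prr11 (-0.72 and -0.92) and the cyclin gene CCNF (-1.002 and -0.59). The share of mitotic genes among the 84 was not counted.

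The triple mutant libraries, which are separate from those of the p53 mutant, showed the same genes low. All 14 members that lay at least 0.25 below the median in both p53 mutant pairs also did so in both triple mutant pairs, where 26 of the 74 members were this low, against 7.56% of all tested genes. Among all genes, 93 of the 365 low in the p53 mutant, or 25.5%, were low in the triple mutant, and they were 7.13% of the 1304 genes low there. In the fit of 18 libraries 9 mitosis genes fell in the triple mutant, among them CCNB1 by 0.81, aurka by 0.98 and PRC1 by 1.11. That fit called 56 genes (0.301%) in the triple mutant, 0.172% lower. Between the responses of the genotypes 0 mitosis genes differed, where 0.129% of all genes did, so a list of this size would hold few or none.

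Of 63 tested members of the DNA replication list, 5 lay at least 0.25 below the median in both pairs and 0 above, against 2.12% and 2.21% of all genes. The 5 were PIF1, CDCA7, MCM2, MCM3 and ORC1. In 4 members of the list, 2 of them among these 5, both 1 h libraries lay below both untreated libraries, near the 5.48% of all genes. In 0 members both lay above. CDCA7, a chromatin factor gene, had 76.08 and 102.45 TPM at 1 h, against 131.5 and 152.14 TPM untreated. MCM3, a subunit of the replicative helicase, had 43.02 and 89.61 TPM at 1 h, against 69.13 and 113.78 TPM untreated, so its groups overlapped across replicates. The list's median differences were -0.27 and -0.01, above that of all genes in pair 1 and below it in pair 2.

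Among 56 tested genes of break repair and checkpoints, WEE1 (ENSDARG00000093864) was the single member at least 0.5 lower in both pairs, against 0.487% of all genes. At least 0.25 below the median in both pairs was also 1 of the 56, near the 2.12% of all genes. WEE1 encodes the kinase that holds back entry into mitosis, and had 8.19 and 16.09 TPM at 1 h, against 16.37 and 24.66 TPM untreated, so both 1 h libraries lay below both untreated libraries, narrowly in replicate 2. The sensor kinase genes ATM and ATR differed by -0.42 and -0.17, and by -0.19 and -0.35. The checkpoint kinase gene CHEK1 (13.45 and 21.85 TPM against 17.00 and 17.70 TPM) was lower in pair 1 and higher in pair 2.

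Targets of p53 lay with the bulk of genes in the p53 mutant. Of 50 tested members of the p53 target list (56 in the table), 0 lay at least 0.25 above the median of all genes in both pairs and 2 at least 0.25 below, near the shares of all genes (2.21% and 2.12%). The median difference of the list was -0.40 and 0.03, close to the -0.39 and 0.07 of all genes. The triple mutant had 13 of the same 50 at least 0.25 above the median in both pairs, against 3.28% of all genes, and 2 below. The list was written with earlier results of these data known, so these counts describe its members and are not a test.

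The gene of p21, cdkn1a (ENSDARG00000076554), had 1.15 and 5.95 TPM in the p53 mutant at 1 h, against 3.14 and 8.78 TPM untreated. It was lower at 1 h in both pairs (-0.95 and -0.49), but the groups overlapped across replicates. In the triple mutant, where cdkn1a is one of the mutated genes and the values are of transcripts from the mutated locus, it had 33.86 and 34.86 TPM at 1 h, against 1.92 and 3.54 TPM untreated. The p53 mutant response minus that of the triple mutant was -4.00 (SE 0.382, limma adjusted p = 0.0401 in the fit of the 8 libraries), with both p53 mutant pairs below both triple mutant pairs. The call was made in the fit of 18 libraries too (adjusted p = 0.000155), and it was lost in 9 other settings, where the adjusted p ranged up to 1.00.

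The interaction of genotype and irradiation called 5 of 17748 genes in the 8 libraries, or 0.0282%, of which 3 (0.0169%) were higher and 2 (0.0113%) lower in the p53 mutant response; the triple mutant's own response called 7 (0.0394%). Beside cdkn1a it called the immediate early gene FOS (ENSDARG00000031683), a transcription factor gene that responds within minutes to many stimuli. FOS had 4.83 and 62.60 TPM in the p53 mutant at 1 h, against 7.08 and 92.90 TPM untreated, and 21.98 and 23.38 TPM in the triple mutant at 1 h, against 1.95 and 2.03 TPM untreated. The difference between the responses was -3.50 (SE 0.284, adjusted p = 0.0196). The replicates of the p53 mutant differed far more in FOS than the groups did, and the gene was as unlike between replicates without irradiation. The call was lost in 5 other settings, with an adjusted p up to 1.00.

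The other 3 calls rested on groups listed at 0. The mitochondrial gene mt-atp8, for a subunit of ATP synthase, had 745 and 6228 TPM in the p53 mutant at 1 h, against 987 and 4556 TPM untreated. It was listed at 0 in both triple mutant libraries at 1 h, with 494 and 367 TPM untreated. A pair of U2 small nuclear RNA genes with identical values was listed at 0 in all 4 p53 mutant libraries, and in the triple mutant at 0 at 1 h and at 9.01 and 9.75 TPM untreated. Fitted differences of these genes depend on the pseudocount. The U2 pair entered the test of the 8 libraries only through the untreated triple mutant libraries, where it is high. Its calls, counted among those called higher, are therefore not used. The 13 mitochondrial genes of the list had medians of -0.12 and 0.09 in the p53 mutant and -1.07 and -1.13 in the triple mutant.

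With the 18 libraries and a term for their kind, the interaction called 24 genes, or 0.129%, of which 17 (0.0915%) had a lower response in the p53 mutant and 7 a higher one. These counts hold genes under the filter in the p53 mutant, namely bbc3 and si:dkey-204l11.1 among the lower and the U2 pair among the higher. The lower ones included 6 of the 50 tested p53 targets, and also bbc3 and sesn4. Thus mdm2 (ENSDARG00000033443) had 18.85 and 59.93 TPM in the p53 mutant at 1 h, against 25.90 and 52.19 TPM untreated, and 204 and 186 TPM in the triple mutant at 1 h, against 54.80 and 53.25 TPM untreated. Its response differed by -1.95 (SE 0.227, adjusted p = 0.00218). The gene of puma, bbc3, is also mutated in the triple mutant, and its transcript was under the filter in the p53 mutant. It had 0.58 and 0.78 TPM at 1 h, against 0.40 and 0.67 TPM untreated, and 11.72 and 14.72 TPM in the triple mutant at 1 h, against 0.58 and 0.72 TPM untreated. It entered the test through the triple mutant 1 h libraries, where it is high, so its call is not used. The call of si:dkey-204l11.1, at 17.33 and 18.01 TPM in the triple mutant at 1 h, is not used either. Calls of the U2 pair are likewise not used.

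The other genes of this kind were near or below their untreated level in the p53 mutant. PHLDA3, an inhibitor of Akt signalling, had 7.70 and 8.57 TPM at 1 h, against 8.46 and 8.51 TPM untreated, and differed from the triple mutant response by -1.81. GADD45A (ENSDARG00000043581), a growth arrest gene, had 2.28 and 1.83 TPM at 1 h, against 1.86 and 1.53 TPM untreated, and differed by -1.66. The sestrin genes sesn3 and sesn4, whose products restrain growth signalling, differed by -1.42 and -1.78, and bmb, a gene of nuclear fusion in zebrafish embryos, by -2.13. The adjusted p of these 5 ranged from 0.000209 to 0.0294. In the p53 mutant, sesn3 was lower in both pairs (-0.63 and -0.23), as was bmb (-0.43 and -0.62), and sesn4 in pair 1 only (-0.79 and 0.03).

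**Figure D3:**
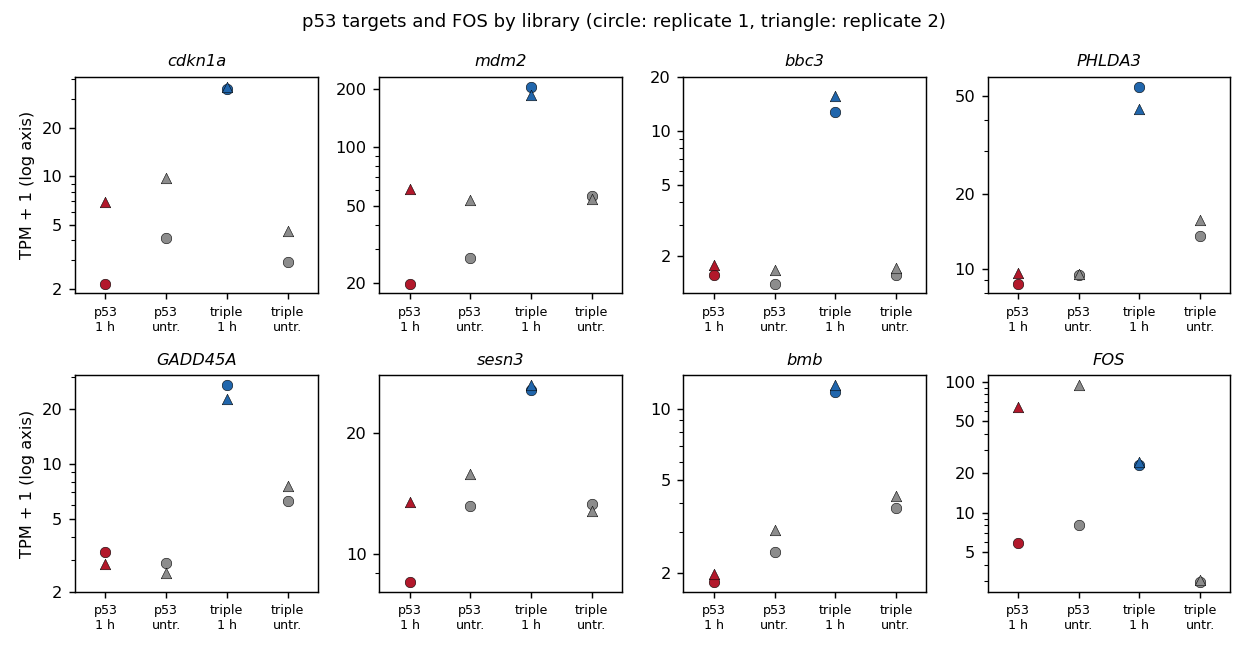
TPM + 1 (log axis) of 7 p53 targets and FOS in each library: p53 mutant at 1 h (red) and untreated (grey), then triple mutant at 1 h (blue) and untreated (grey); circles are replicate 1 and triangles replicate 2. Both blue points lie above the grey points of the triple mutant in all 8 panels, while red and grey points of the p53 mutant lie close together or overlap in range, except in bmb, where both red points lie lower. All 8 genes were called with a lower response in the p53 mutant in the fit of 18 libraries. Their pattern thus follows from the choice and is not a test. The call of bbc3 is not used. BAX, pmaip1 and CCNG1, which were not called, are not drawn.

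The remaining genes of the title did not separate. The cyclin G1 gene CCNG1 (ENSDARG00000076667) stood at 284 and 253 TPM 1 h after irradiation, against 258 and 253 TPM in untreated embryos. The forkhead factor gene foxo3b (ENSDARG00000042904) had 1.63 and 11.59 TPM at 1 h, against 5.31 and 9.35 TPM untreated. FBXW7 (ENSDARG00000060994), the substrate subunit of a ubiquitin ligase, had 8.09 and 27.44 TPM at 1 h, against 18.36 and 26.48 TPM untreated. Both foxo3b (-1.26 and 0.28) and FBXW7 (-1.09 and 0.05) were low in pair 1 and not in pair 2. The death genes pmaip1, the gene of noxa (0.08 and -0.43) and BAX (-0.36 and 0.03) also had pairs of opposite sign.

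Genes of the lens had the highest median of the 29 lists in each pair. Crystallins are the structural proteins of lens fibre cells and mark this tissue. Of 41 tested members of the lens list (55 in the table), 29 lay at least 0.25 above the median of all genes in both pairs and 0 below, against 2.21% and 2.12% of all genes. At least 0.5 higher in both pairs were 7, against 0.191% of all genes. In 6 members both 1 h libraries lay above both untreated libraries, and in 0 below, against 2.63% and 5.48% of all genes; the 39 tested proteasome genes had the same counts, with median differences of 0.05 and 0.06. The list had median differences of 0.41 and 0.50, while those of all genes were -0.39 and 0.07. No member passed limma in the comparison within the p53 mutant.

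The gamma crystallin gene crygm2d10 (ENSDARG00000087765) had 266 and 154 TPM at 1 h, against 172 and 83.90 TPM untreated, with pair differences of 0.62 and 0.87 (0.75, SE 0.252, adjusted p = 1.00). Replicate 1 was above replicate 2 in each group, so the groups overlapped across replicates and the difference shows within pairs. The alpha crystallin gene CRYAA stood at 3.10 and 2.31 TPM 1 h after irradiation, against 1.79 and 1.09 TPM in untreated embryos. The beta crystallin gene crybb1l1 had 221 and 277 TPM at 1 h, against 215 and 168 TPM untreated, a difference in pair 2 alone. Copies of the crygm2d family resemble each other closely, so the split of reads among them is uncertain. The summed level of the 41 genes was 5330 and 3190 TPM at 1 h, against 4090 and 2300 TPM untreated.

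Both other groups of embryos gave lower lens values. In the triple mutant at 1 h the list summed to 1880 and 2200 TPM, against 2750 and 2290 TPM untreated, with list medians of -0.54 and -0.16. There 16 of the 41 genes lay at least 0.25 below the median in both pairs and 0 above, and 12 of the 16 were among the 29 high in the p53 mutant. With the triple mutant's replicate numbers crossed, 10 of the 41 were this low and 0 this high. The difference between responses was called for 1 member, crygm2d7, in the fit of 18 libraries (1.05, SE 0.175, limma adjusted p = 0.0384), where 0.0377% of all genes were called higher. Its level was 82.59 and 34.41 TPM in the p53 mutant at 1 h, against 55.41 and 21.94 TPM untreated, and 26.47 and 29.51 TPM in the triple mutant at 1 h, against 42.27 and 35.48 TPM untreated. The p53 mutant at 3 h, against the same untreated libraries, summed to 2280 and 1990 TPM. Whether the kind of library or the age at collection bears on the lens values was not tested.

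**Figure D4:**
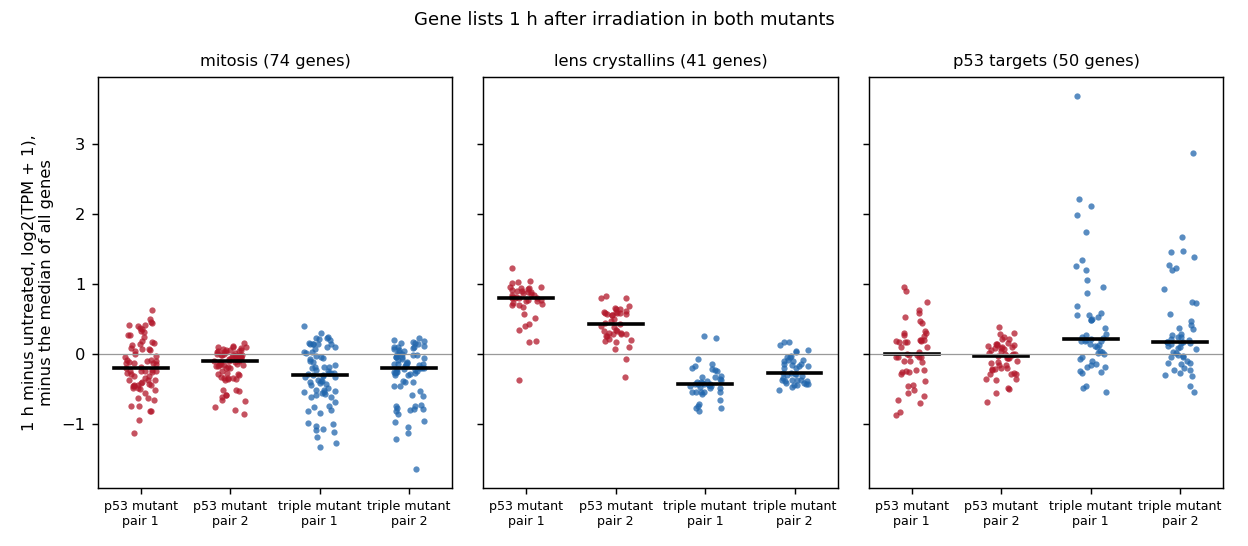
Difference between 1 h and untreated embryos in log2(TPM + 1), minus the median of all genes, for each tested member of 3 gene lists, in the 2 pairs of the p53 mutant (red) and the 2 pairs of the triple mutant (blue); bars are list medians. Mitosis genes reach below 0 in all 4 pairs, lens crystallins lie above 0 in the p53 mutant (medians 0.80 and 0.43) and below it in the triple mutant (-0.43 and -0.27), and p53 targets reach above 1 in the triple mutant.

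Among single genes on the high side, vhl, which encodes the recognition subunit of the ligase that degrades hypoxia-inducible factors, was the most even. It had 8.44 and 8.32 TPM at 1 h, against 5.02 and 4.92 TPM untreated, and 0.65 in both pairs (SE 0.445, adjusted p = 1.00). The p53 mutant at 3 h had 20.91 and 16.68 TPM, against those untreated libraries, and the triple mutant at 1 h had 5.16 and 5.14 TPM, against 5.53 and 4.04 TPM untreated. EEF1AKMT2, a methyltransferase gene for an elongation factor, had 31.05 and 33.79 TPM at 1 h, against 19.32 and 9.45 TPM untreated. It was not called (1.196, SE 0.341, limma adjusted p = 0.527) but passed with median-of-ratios scaling (adjusted p = 0.00159), without a filter (0.0478) and with median centring (0.0110). Without untreated replicate 2 the difference was 0.03 in the fit of 18 libraries, and without untreated replicate 1 it was 2.36.

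Further pairs on the high side were those of DTD2, which edits mischarged transfer RNA (0.76 and 0.58), CYB561A3, a ferric reductase gene (0.72 and 0.70), and MAN1C1, a mannosidase gene of the Golgi (0.60 and 0.67). On the low side, the transcription factor gene LMX1B (ENSDARG00000104815) had 1.46 and 7.79 TPM at 1 h, against 4.92 and 15.94 TPM untreated. INKA2, an inhibitor of a PAK kinase, had 0.87 and 1.57 TPM at 1 h, against 3.43 and 3.68 TPM untreated, and differences of -1.24 and -0.86 set beside -1.26 and -1.37 in the triple mutant. The lipid droplet gene plin6 (-0.89 and -1.11), the hormone gene pth1b (-1.25 and -0.90) and the claudin gene cldng (-0.86 and -0.88) also differed in both pairs, at levels near or below 3 TPM for the last 2.

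At 0.5 in both pairs, 0 members of the hypoxia, heat shock, integrated stress, antioxidant and clock lists differed, where 0.191% of all genes were higher and 0.487% lower, so that lists of this size would hold few or none. The gene vhl, 0.65 higher in both pairs, is not on the hypoxia list. Among the 55 hypoxia genes both 1 h libraries lay below both untreated libraries in 9 and above them in 3, against 5.48% and 2.63% of all genes. The low ones were EGLN1, BNIP3L, P4HA2, epoa, pgam1a and both loci each of VEGFA and ALDOA, and the high ones EGLN3, ANKRD37 and DDIT4, all named after their values were seen. For the low ones the pair 2 difference was small, as with the growth factor gene VEGFA (-0.50 and -0.24 at 1 locus, -0.53 and -0.16 at the other). The oxygen-sensing hydroxylase gene EGLN3 had 2.74 and 2.25 TPM at 1 h, against 1.77 and 1.93 TPM untreated, and 32.30 and 24.06 TPM at 3 h. The growth brake gene DDIT4 had 40.26 and 40.90 TPM at 1 h, against 26.87 and 35.44 TPM untreated, and 185 and 156 TPM at 3 h. The heat shock gene hsp70l had 0.34 and 1.68 TPM at 1 h, against 0.68 and 1.69 TPM untreated, and 12.82 and 26.29 TPM at 3 h. The 3 h levels share the untreated libraries and are given for their size.

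Some immediate early genes differed more between replicates than between groups. Beside FOS, the zinc finger gene egr1 had 1.34 and 16.17 TPM at 1 h, against 2.42 and 22.39 TPM untreated, and ATF3 had 2.51 and 15.34 TPM, against 4.00 and 17.94 TPM. Each was higher in replicate 2 of both groups, and lower at 1 h in both pairs. Of the 51 tested members of this list, 1 lay at least 0.25 above the median in both pairs and 2 below, near the shares of all genes (2.21% and 2.12%). In pair 1 alone, 7 lay this far below the median (27.8% of all genes) and 13 above. In pair 2 alone, 22 lay this far below (12.5% of all genes) and 4 above. As deposited, 29 were lower in both pairs and 1 higher, against 4710 and 1279 of all 17242 genes.

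**Figure D5:**
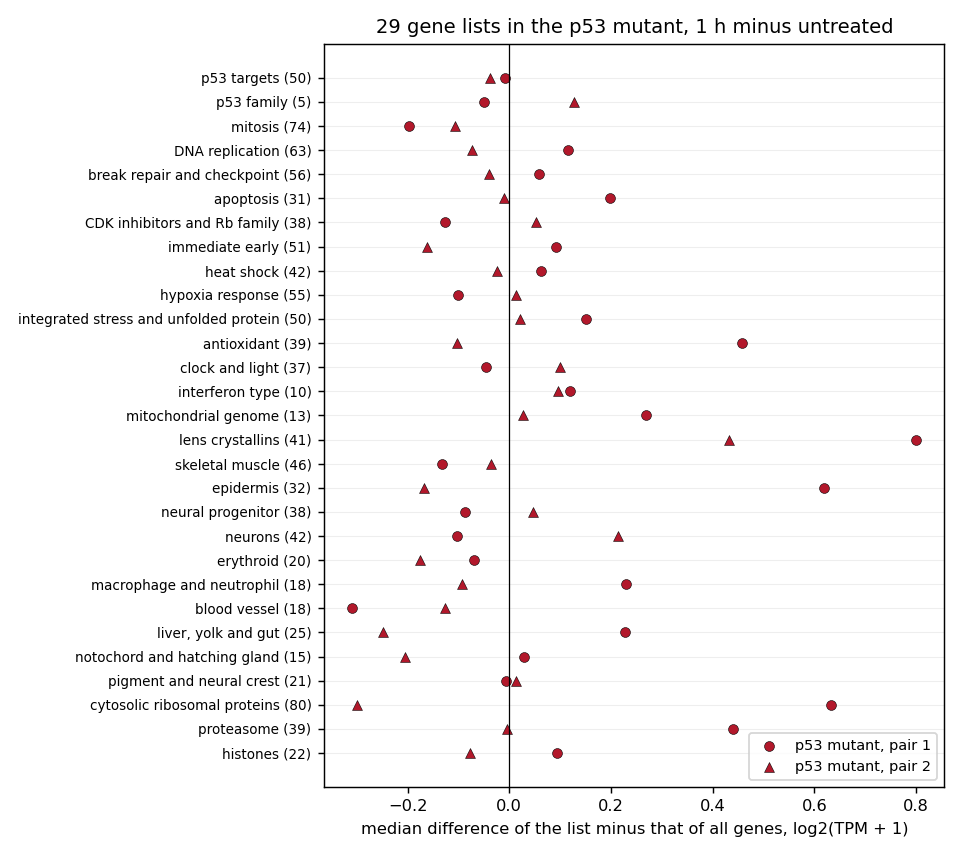
Median difference of each of 29 gene lists between 1 h and untreated p53 mutant embryos in log2(TPM + 1), minus that of all genes, for pair 1 (circles) and pair 2 (triangles); the number of tested members stands in brackets. Lens crystallins are far above 0 in both pairs. Mitosis is below 0 in both (-0.20 and -0.11), as are other lists, and blood vessel lies further below (-0.31 and -0.13). Cytosolic ribosomal proteins and epidermis lie above 0 in pair 1 and below it in pair 2.

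Lists of abundant transcripts went opposite ways in the pairs. The 80 genes of cytosolic ribosomal proteins had a median difference of 0.24 in pair 1 and -0.23 in pair 2, and took 26.0% and 15.8% of TPM at 1 h, against 22.1% and 18.0% untreated. The epidermis list had 0.23 and -0.10, while the 42 neuron genes had -0.49 and 0.28. Of the 42, 35 were lower in pair 1 and higher in pair 2, as were 9490 of all 17242 genes. Skeletal muscle had -0.52 and 0.03, which is below the median of all genes in both pairs (by -0.13 and -0.04). Opposite pairs of at least 1 were found for 10 genes lower in pair 1 and 1 gene lower in pair 2, among them 5_8S_rRNA. Others were CPLX1, a gene of synaptic vesicle release (1.64 and 14.27 TPM at 1 h, against 7.54 and 5.40 TPM untreated), OSBP, a lipid transfer gene (3.09 and 73.45 TPM, against 11.39 and 30.86 TPM), and the small RNA genes SNORD15 (-3.07 and 1.74) and U1 (-1.72 and 1.93). The part of the kind of library in these differences was not tested.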

How the data were processed

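The authors deposited 1 table of TPM values per genotype, transcript abundances per gene corrected for length and scaled to the same sum in each library. Per the submitters' processing notes, the genome build was GRCz11, and the tools listed, without a role for any, include RSEM 1.3.3 and STAR 2.7.3a as well as DESeq2 1.42.1, HTSeq 0.12.3 and R 4.3.3. The annotation release is not given in the sources used here. TPM values hold no read counts, so depth is unknown, and a gene listed at 0 may lie below it. A gene name table gave a symbol for 28988 of 32057 identifiers.

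Values were taken as log2(TPM + 1), for genes that reached 1 TPM in 2 or more of the libraries compared. Tests were made with limma 3.58.1 in R 4.3.3, with a trend of the spread on the mean, two-sided, adjusted by Benjamini and Hochberg over all genes kept and called under 0.05. The p53 mutant comparison used 4 libraries with the replicate number as a block (1 residual degree of freedom), the difference between genotypes 8 libraries with the number within genotype as a block. In the fit of 4 libraries limma gave the trend all the weight, so each SE depends on the mean level only. The comparison was defined within replicate numbers, since replicates 1 and 2 are different kinds of library; in the p53 mutant the replicate differences of the 2 groups correlated at 0.81. A fit of 18 libraries with a term for the library higher in 5.8S ribosomal RNA of each unlike pair was an alternative, beside other pseudocounts, filters, scalings and libraries left out. The fits were tested on simulated data. Named genes are those of the p53 pathway and the title, then by rule the 15 highest and 15 lowest by the smaller pair difference, up to 4 per list, 5 with opposite pairs and up to 10 interaction calls; CHEK1, CDK1, EGLN3, hsp70l, ATF3, crybb1l1, further list members and the genes named as singled out were chosen after their values were seen, and unnamed loci were left out. Some genes the rule names are not reported here. The members, the 29 lists and the rules on both pairs were chosen with earlier results of these data known.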

Additional observations from a re-analysis of the deposited data

Results flagged for a closer look

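How far the response at 1 h differed between the genotypes, p53 mutant minus triple mutant, was tested for every gene, and limma called 5 genes. For cdkn1a it was -4.00, with 33.86 and 34.86 TPM in the triple mutant at 1 h. For FOS it was -3.50, with p53 mutant replicates of 4.83 and 62.60 TPM at 1 h. For mt-atp8 it was 8.76, and this gene was listed at 0 in both triple mutant libraries at 1 h. For the 2 copies of U2 it was 3.37 each, and both were listed at 0 in all 4 p53 mutant libraries and in the triple mutant at 1 h. Both passed the filter only through the untreated triple mutant libraries, where they are high, so these 2 calls are not used.

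The lens crystallin list stood above all genes by 0.80 and 0.43 in the 2 pairs of the p53 mutant, and below them, at -0.43 and -0.27, in the 2 pairs of the triple mutant. Every pair of one genotype thus moved against every pair of the other, and the difference between the medians was not tested.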

How the results depend on the processing

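The count of genes called in the p53 mutant at 1 h, 1 in the chosen fit, was 6 with a pseudocount of 0.1 TPM, 157 without a filter, 10 with median-of-ratios scaling (3 higher, 7 lower), 3 without a trend and 10 with median centring, added after seeing the data (7 higher, 3 lower). It was 0 with a pseudocount of 5 TPM, quantile normalization, removal of mitochondrial and ribosomal RNA genes and the 6 libraries of the table with the block, where limma gave 216, 489, 241 and 53 genes at an unadjusted p under 0.05. With no replicate block, that is without the pairing, it was also 0 (11 unadjusted). Leaving out 1 library of the fit of 18 gave 3 (without untreated replicate 1) to 5482 genes (without 1 h replicate 2), with 9 without 1 h replicate 1 and 11 without untreated replicate 2.

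The count of genes that differed between genotypes, 5, was 1 with a pseudocount of 0.1 TPM, without a filter or with median centring, 2 with a filter of 5 TPM, 3 with quantile normalization or without mitochondrial and ribosomal RNA genes, 0 with no replicate block (120 unadjusted) and 24 in the fit of 18 libraries. Leaving out 1 library of the fit of 18 gave 10 to 2656 (2656 without p53 mutant 1 h replicate 2, 27 and 14 and 28 without the other p53 mutant libraries, 10, 11, 13 and 17 without those of the triple mutant). The triple mutant's own count, 7, was 2 with no replicate block and 56 in the fit of 18 libraries. Replicate differences of the triple mutant correlated at -0.11; with its numbers crossed, chosen after seeing the data, 4 genes differed between genotypes and 7 were called in the triple mutant.

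Without the requirement of both pairs, mitosis genes at least 0.25 below the median numbered 33 in pair 1 (27.8% of all genes) and 23 in pair 2 (12.5%), against 14 in both. At 0.5 as deposited the counts were 7 for mitosis and 7 for lens crystallins. Some differences turned sign, not all of them near 0. With quantile normalization mdm2 was 0.0138 and pmaip1 0.0235. With median centring mdm2 was 0.0872, pmaip1 0.0321 and BAX 0.0451. With median-of-ratios scaling mdm2 was 0.0816, pmaip1 0.0168 and BAX 0.0405. In the fit of 18 libraries without 1 h replicate 1, mdm2 was 0.246, foxo3b 0.198, FBXW7 0.0521 and BAX 0.0188. With all 18 libraries, foxo3b was -0.49 and FBXW7 -0.52. Without untreated replicate 1, CCNG1 was -0.101 in that fit, and without untreated replicate 2, pmaip1 was 0.205. TPM values give no depth, so genes listed at 0 or near 1 TPM carry an unknown counting error.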

Other observations

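Histone and blood genes hold values not described above. The linker histone gene histh1l1 had 321 and 367 TPM in the p53 mutant at 1 h, against 508 and 451 TPM untreated, with pair differences of -0.66 and -0.30, and -0.46 and -0.48 in the triple mutant. Both 1 h libraries lay below both untreated libraries. The embryonic globin gene hbae3 had 2960 and 2114 TPM at 1 h, against 3464 and 2661 TPM untreated. The macrophage gene MFAP4 (ENSDARG00000088745) had 13.95 and 19.43 TPM at 1 h, against 19.26 and 27.39 TPM untreated, lower in both pairs (-0.44 and -0.47); several loci carry this symbol, and the split of reads among them is uncertain. None of the 3 was called.

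The cobalamin-binding gene tcnbb had 179 and 94.27 TPM in the p53 mutant at 1 h, against 129 and 59.67 TPM untreated, and 53.33 and 49.50 TPM in the triple mutant at 1 h, against 100 and 81.37 TPM untreated. Its response was higher in the p53 mutant by 1.36 (SE 0.193, limma adjusted p = 0.0111, in the fit of 18 libraries). The actinodin gene and3 and the keratin gene krt91 differed in the same direction, by 1.16 and 0.94. The transporter gene SLC13A4 went the other way, with 24.63 and 35.27 TPM in the p53 mutant at 1 h, against 41.50 and 52.67 TPM untreated, and 20.21 and 25.23 TPM in the triple mutant at 1 h, against 17.03 and 14.81 TPM untreated.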
